A study of Homo sapiens with 9 samples.

Results

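Expression of 10 genes of the replication stress checkpoint (ATM, ATR, ATRIP, CHEK1, CHEK2, WEE1, TOPBP1, CLSPN, TIMELESS and CDC25A) was examined in PC3 xenografts after treatment with antibody-drug conjugates carrying deruxtecan. The genes were chosen by name for their role in the checkpoint, with earlier results of these data known, and all 10 were listed in both count tables, among 16204 genes listed in either. PC3 is a human prostate cancer cell line that lacks p53. Cells were grown subcutaneously in male NSG mice, an immunodeficient strain, that were 11 weeks old at injection per the series record, and tumor RNA was sequenced at the end of treatment. The 9 libraries comprise 3 from vehicle-treated mice (PBS), 3 titled PDXd and 3 titled TDXd, with each conjugate given weekly into the retro-orbital sinus at 5 mg/kg. Mouse age, starting tumor volume and number of cycles differ between the series record and the methods of the study. For the experiment with both conjugates at 5 mg/kg, the methods give younger mice, larger starting tumors and fewer cycles than the record. The values of the record are those that the methods give for a separate experiment with T-DXd alone at a higher dose.

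P-DXd (patritumab deruxtecan) binds HER3 and T-DXd (trastuzumab deruxtecan) binds HER2, and both release the same topoisomerase I inhibitor. Titles and treatment fields name opposite conjugates for all 6 treated libraries, so the groups are called PDXd-titled and TDXd-titled here. Which conjugate each group received is unresolved, and the comparison of all 6 treated libraries with PBS does not depend on it. Titles give each library a xenograft code of its own without stating that each tumor came from a different mouse, so p-values measure the spread between these samples, all grown from 1 cell line.

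Topoisomerase I relieves the torsion that builds up ahead of replication forks. An inhibitor that traps the enzyme on DNA blocks forks, exposes single-stranded DNA and, where a fork runs into the trapped enzyme, breaks the DNA. The exposed DNA is coated by the protein RPA, ATRIP binds RPA and brings the kinase ATR with it, and TOPBP1 switches ATR on. CLSPN (claspin) and TIMELESS travel with the fork and allow ATR to phosphorylate the kinase CHEK1. ATM is the kinase that responds to breaks and acts through CHEK2. CHEK1 and CHEK2 mark the phosphatase CDC25A for destruction, which keeps cyclin-dependent kinases inactive, and WEE1 holds these kinases back directly. These steps are carried out by protein modification, which RNA levels do not report.

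Many genes of S phase are controlled by E2F factors and NF-Y, so the promoters of the 10 genes were searched on both strands for 4 E2F octamers (TTTCCCGC, TTTGGCGC, TTTCGCGC and TTTGCCGC), the cell cycle genes homology region TTTGAA and the NF-Y box CCAAT. RefSeq promoter windows on GRCh38.p14, from 250 bases before to 50 bases after the gene start, were found for 9 of the 10 genes, 13 windows in all, and not for WEE1. An E2F octamer was found in 3 genes, TTTGAA in 1 (ATM) and CCAAT in 7. Of all 35116 windows, 3.31% held one of the E2F octamers, 15.2% TTTGAA and 34.6% CCAAT. The counts are per gene and these shares per window. CHEK1 had 3 windows and ATM and ATRIP 2 each, so these genes had more than 1 chance of a match. The stretch from 150 bases before to 25 bases after the start is printed here for the 3 genes with an E2F octamer and for ATR, whose window held none of the 6 motifs. Each is given 5′ to 3′ on the strand of its gene, all on the minus strand, with matches in capitals. Matches read from the opposite strand appear as ATTGG for CCAAT, GCGGGAAA for TTTCCCGC and GCGCGAAA for TTTCGCGC.
CLSPN: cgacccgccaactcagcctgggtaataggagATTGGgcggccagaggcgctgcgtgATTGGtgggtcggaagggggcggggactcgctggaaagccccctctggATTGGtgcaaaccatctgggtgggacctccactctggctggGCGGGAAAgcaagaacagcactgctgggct
CDC25A: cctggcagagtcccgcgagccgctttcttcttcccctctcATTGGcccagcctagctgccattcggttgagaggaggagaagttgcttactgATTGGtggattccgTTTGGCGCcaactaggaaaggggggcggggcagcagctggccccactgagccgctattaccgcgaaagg
TOPBP1: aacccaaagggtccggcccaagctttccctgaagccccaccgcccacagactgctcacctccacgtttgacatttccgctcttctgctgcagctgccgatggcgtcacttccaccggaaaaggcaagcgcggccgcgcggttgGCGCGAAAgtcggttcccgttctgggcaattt
ATR: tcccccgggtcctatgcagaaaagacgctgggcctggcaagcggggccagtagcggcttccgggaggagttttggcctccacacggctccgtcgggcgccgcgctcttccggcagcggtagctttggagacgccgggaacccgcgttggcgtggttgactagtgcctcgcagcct

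The stretches are chr1:35769954-35770128 for CLSPN, chr3:48188393-48188567 for CDC25A, chr3:133661917-133662091 for TOPBP1 and chr3:142578709-142578883 for ATR. In CLSPN, the E2F octamer spanned the start, from position -5 to 3, and CCAAT boxes began at -119, -94 and -46. In CDC25A, TTTGGCGC began at -44 and CCAAT boxes at -110 and -58. In TOPBP1, TTTCGCGC ran from -7 to 1, with no CCAAT. ATM, ATRIP, CHEK1, CHEK2 and TIMELESS held CCAAT without an E2F octamer. A match describes these letters only, and binding was not measured.

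Total counts were 90761763 to 125538606 in PBS and 54481702 to 83721486 in treated libraries, so no treated library was as deep as any PBS library. PBS replicate 1 stood apart from the other PBS libraries, with a chi-square statistic per gene of 316 and 388 against 37.5 between replicates 2 and 3, and PDXd-titled replicate 2 stood apart within its group at 126 and 106 against 39.8. Results are therefore also given without them. The 5 epithelial markers of PC3 were present, with a summed level of 1668 to 2345 CPM (counts scaled to a common library size) in PBS and 3127 to 3664 CPM in treated libraries. Of the 5, 2 were called higher in all treated against PBS. The prostate luminal markers KLK3 and KLK2 were not in the tables. Of host cell markers, all 10 for skeletal muscle were called higher in treated libraries (1.96 to 52.9 CPM summed in PBS, 78.2 to 4385 CPM in treated, the highest in PDXd-titled replicate 2, with MYH1, MYH2 and TNNT3 at 0 in some PBS library). For fibroblasts 5 of 9 tested were called higher (1058 to 2062 against 1226 to 2226 CPM), for macrophages 3 higher and 1 lower of 6 (7.14 to 8.72 against 12.5 to 22.3 CPM, with CD68 at 0 in some treated library and CD163, MRC1, TYROBP and C1QC not in the tables), and for endothelium 1 of 5 (4.41 to 8.37 against 5.23 to 9.86 CPM, with PECAM1 and EMCN not in the tables). Beside these counts, 15.2% of all genes tested were called higher and 17.1% lower in all treated against PBS. The markers were counted as human genes, whereas host cells are from the mouse, and the handling of mouse reads is not stated. How much of these levels came from host cells was not measured. Whether these shifts in marker levels take part in the results below was not tested.

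All 10 checkpoint genes were lower in treated xenografts than in PBS. Each was called lower, at an adjusted p at or below 0.05 by edgeR and a fold change of at least 1.5, in PDXd-titled against PBS, where 13.8% of all genes tested were called lower, in TDXd-titled against PBS (15.5%) and in all treated against PBS (17.1%). Every treated library was below every PBS library for each of the 10, against 25.5% of all genes tested. The median log2 fold change of the 10 was -1.13 in PDXd-titled and -1.21 in TDXd-titled xenografts, beside -0.01 and -0.02 over all genes tested. No checkpoint gene was called higher, whereas 11.2%, 13.1% and 15.2% of all genes were in the 3 comparisons. The first pair of comparisons shares its PBS libraries. In bulk tumor RNA, fewer cells of a type and less RNA per cell cannot be told apart.

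The call held for all 10 genes in all treated against PBS without PDXd-titled replicate 2 (17.1% of all genes tested called lower), and for 9 without PBS replicate 1 (14.0%), which took ATRIP below the fold minimum. In PDXd-titled against PBS, 9 were called without PBS replicate 1 (12.6% of all genes), 8 without PDXd-titled replicate 2 (9.05%) and 6 without PDXd-titled replicate 3 (6.94%), the last losing ATR, ATRIP, CHEK2 and WEE1.

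**Figure D1:**
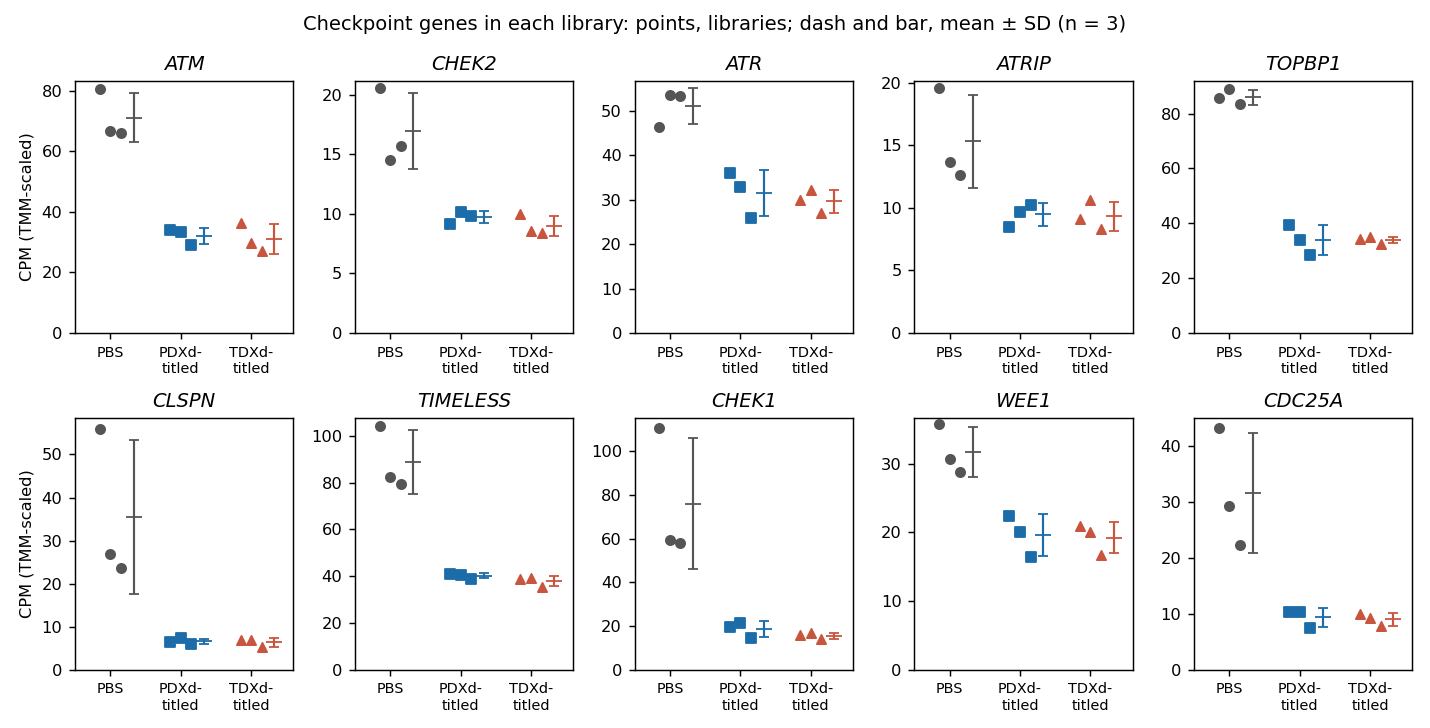
Level of each of the 10 checkpoint genes in CPM (vertical axes, each from 0) in the 9 libraries: circles, PBS; squares, PDXd-titled; triangles, TDXd-titled; dash and bar, mean ± SD (n = 3). In every panel all 6 treated libraries lie below all 3 PBS libraries, and in 8 panels PBS replicate 1, the leftmost circle, is the highest point.

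The kinase that responds to breaks, ATM (ENSG00000149311.13, listed on chromosome 11 from 108093211 to 108239829, on a build the tables do not name) was measured at 80.5, 66.5 and 66.2 CPM in PBS replicates 1 to 3. It was at 33.9, 33.3 and 29.2 CPM in PDXd-titled and at 36.5, 29.9 and 27.0 CPM in TDXd-titled replicates 1 to 3. The highest treated library was thus well under the lowest PBS library. ATM fell by 1.13 ± 0.12 (SE) on the log2 scale in PDXd-titled xenografts (edgeR adjusted p = 0.00176) and by 1.19 ± 0.14 in TDXd-titled xenografts (adjusted p = 0.00149), to 44.5% of the PBS mean over all treated libraries. In the table coordinates, ATM shares 60584 bases with C11orf65, which was at or below 1.08 CPM in all libraries, and 159 bases with NPAT, which was not called (log2 fold change -0.25 ± 0.08 in all treated against PBS).

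CHEK2 (ENSG00000183765.16, chromosome 22, 29083731 to 29138410), the kinase that ATM activates, was at 20.5, 14.5 and 15.7 CPM in PBS. PDXd-titled libraries held 9.16, 10.2 and 9.83 CPM and TDXd-titled libraries 9.97, 8.58 and 8.36 CPM. The treated libraries lay close together, all under the lowest PBS library. CHEK2 fell by 0.78 ± 0.16 on the log2 scale in PDXd-titled (edgeR adjusted p = 0.0127) and by 0.91 ± 0.17 in TDXd-titled xenografts (adjusted p = 0.00628). Without PDXd-titled replicate 1 or 3, its adjusted p in PDXd-titled against PBS was 0.0503 or 0.0547, within a range of 0.000153 to 0.0547 over the alternatives run.

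ATR (ENSG00000175054.10, chromosome 3, 142168077 to 142297668) was at 46.3, 53.6 and 53.4 CPM in PBS, at 36.1, 32.8 and 25.96 CPM in PDXd-titled and at 29.9, 32.2 and 27.0 CPM in TDXd-titled libraries. It was 1 of 2 genes among the 10, with TOPBP1, for which PBS replicate 1 was not the highest library. ATR fell by 0.68 ± 0.15 on the log2 scale in PDXd-titled (edgeR adjusted p = 0.0135) and by 0.78 ± 0.11 in TDXd-titled xenografts (adjusted p = 0.00223). This left 60.0% of the PBS mean over all treated libraries.

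Its partner ATRIP (ENSG00000164053.13, chromosome 3, 48488114 to 48507115) was at 19.6, 13.7 and 12.7 CPM in PBS, at 8.48, 9.67 and 10.3 CPM in PDXd-titled and at 9.08, 10.6 and 8.33 CPM in TDXd-titled libraries. The groups did not overlap, but PBS replicate 1 carried much of the distance. ATRIP fell by 0.68 ± 0.20 on the log2 scale in PDXd-titled (edgeR adjusted p = 0.0347) and by 0.71 ± 0.20 in TDXd-titled xenografts (adjusted p = 0.0265). Over the alternatives run, its adjusted p ranged from 0.00665 to 0.111 in the first and from 0.00339 to 0.101 in the second comparison. Without PBS replicate 1 the fall was 0.47 and 0.50 on the log2 scale and no longer reached the fold minimum. A block on a digit of the animal code also removed the call in both comparisons, and ATRIP lost its call under more of the alternatives run than any other of the 10.

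ATRIP also shares 671 bases with TREX1, a DNA exonuclease gene listed on chromosome 3 from 48506445 to 48509044. TREX1 had 160, 276 and 222 counts in PBS, 341, 342 and 431 in PDXd-titled and 347, 374 and 328 in TDXd-titled libraries, all at lower depth than PBS. In CPM this was 1.98 ± 0.168 (SD, n = 3) in PBS, 5.63 ± 1.37 in PDXd-titled and 4.94 ± 0.136 in TDXd-titled xenografts. TREX1 was called higher in all treated against PBS, by 2.67-fold (edgeR adjusted p = 0.000128), while ATRIP was called lower. Reads of the shared stretch may be split between these genes, since how the counting treated such reads is not stated for these tables.

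TOPBP1 (ENSG00000163781.8, chromosome 3, 133317019 to 133380737), the activator of ATR, had the tightest PBS values of the 10, at 85.7, 88.9 and 83.4 CPM. PDXd-titled libraries held 39.4, 33.9 and 28.3 CPM and TDXd-titled libraries 34.2, 35.0 and 32.6 CPM. All treated libraries lay far below the PBS libraries. TOPBP1 fell by 1.33 ± 0.13 on the log2 scale in PDXd-titled (edgeR adjusted p = 0.00162) and by 1.34 ± 0.08 in TDXd-titled xenografts (adjusted p = 0.000330). It had the smallest adjusted p of the 10 in all treated against PBS (3.70e-06), and its fall there was 1.34 both with PBS replicate 1 and without it.

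The 2 mediators at the fork differed in how far they fell. CLSPN (ENSG00000092853.9, chromosome 1, 36185819 to 36235568), the adaptor that presents CHEK1 to ATR, was at 56.0, 26.9 and 23.6 CPM in PBS. It was at 6.46, 7.29 and 5.98 CPM in PDXd-titled and at 6.98, 6.97 and 5.18 CPM in TDXd-titled libraries. CLSPN had the largest fall of the 10, by 2.42 ± 0.34 on the log2 scale in PDXd-titled (edgeR adjusted p = 0.00369) and by 2.47 ± 0.35 in TDXd-titled xenografts (adjusted p = 0.00263). All treated libraries together held 18.3% of the PBS mean, and 1.45% of all genes tested had a lower log2 fold change. PBS replicate 1 lay far above the other PBS libraries, and without it the fall in all treated libraries was 1.95 ± 0.12.

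TIMELESS (ENSG00000111602.7, chromosome 12, 56810903 to 56843187), a subunit of the fork protection complex, was at 104, 82.4 and 79.4 CPM in PBS, at 41.01, 40.5 and 39.0 CPM in PDXd-titled and at 38.9, 39.4 and 35.3 CPM in TDXd-titled libraries. The spread among the treated libraries was small, with a coefficient of variation of 2.67% in PDXd-titled and 5.96% in TDXd-titled xenografts. TIMELESS fell by 1.13 ± 0.12 on the log2 scale in PDXd-titled (edgeR adjusted p = 0.00191) and by 1.23 ± 0.12 in TDXd-titled xenografts (adjusted p = 0.000918).

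CHEK1 (ENSG00000149554.8, chromosome 11, 125495036 to 125546150), the effector kinase of ATR, was at 110 CPM in PBS replicate 1 and at 59.4 and 58.2 CPM in replicates 2 and 3. It was at 19.6, 21.4 and 14.6 CPM in PDXd-titled and at 15.7, 16.7 and 13.9 CPM in TDXd-titled libraries. CHEK1 fell by 2.02 ± 0.28 on the log2 scale in PDXd-titled (edgeR adjusted p = 0.00381), and its log2 fold change in TDXd-titled xenografts was -2.297 ± 0.27 (adjusted p = 0.00138). All treated libraries together held 22.3% of the PBS mean. Without PBS replicate 1 the fall over all treated libraries was 1.78 ± 0.13, against 2.16 ± 0.20 with it. CHEK1 shares 4734 bases with ACRV1, which had at most 79 counts in any library and was itself called lower (log2 fold change -2.40 ± 0.41 in all treated against PBS), and 75 bases with STT3A, which was not called.

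WEE1 (ENSG00000166483.6, chromosome 11, 9595228 to 9615004), the kinase that inhibits cyclin-dependent kinases, was at 35.7, 30.7 and 28.7 CPM in PBS, at 22.4, 20.0 and 16.4 CPM in PDXd-titled and at 20.9, 20.1 and 16.6 CPM in TDXd-titled libraries. The groups did not overlap. WEE1 fell by 0.68 ± 0.15 on the log2 scale in PDXd-titled (edgeR adjusted p = 0.0156) and by 0.72 ± 0.13 in TDXd-titled xenografts (adjusted p = 0.00624), to 61.2% of the PBS mean over all treated libraries. In PDXd-titled against PBS its adjusted p was 0.0525 without PDXd-titled replicate 2 and 0.0588 without replicate 3, the largest in a range from 0.000629 over the alternatives run.

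CDC25A (ENSG00000164045.7, chromosome 3, 48198636 to 48229892), the phosphatase that reverses the action of WEE1, was at 43.2, 29.2 and 22.2 CPM in PBS, at 10.3, 10.2 and 7.41 CPM in PDXd-titled and at 10.01, 9.15 and 7.74 CPM in TDXd-titled libraries. The PBS libraries were far apart from each other, yet the lowest of them was above the highest treated library. CDC25A fell by 1.74 ± 0.26 on the log2 scale in PDXd-titled (edgeR adjusted p = 0.00465) and by 1.81 ± 0.25 in TDXd-titled xenografts (adjusted p = 0.00237). Without PBS replicate 1 the fall over all treated libraries was 1.48 ± 0.14, against 1.78 ± 0.18 with it.

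By size of fall in all treated against PBS, the 10 genes were sorted into 3 bands, with limits set after the values were seen. Without PBS replicate 1, CDC25A fell by 1.48, close to TOPBP1, which fell by 1.28 to 1.39 over the libraries left out. CLSPN, CHEK1 and CDC25A fell by 1.78 to 2.45 on the log2 scale, TOPBP1, TIMELESS and ATM by 1.17 to 1.34, and CHEK2, ATR, WEE1 and ATRIP by 0.70 to 0.85. Of the genes whose promoters are printed above, CLSPN and CDC25A were in the first band, TOPBP1 in the second and ATR in the third. CHEK1, in the first band, had no E2F octamer in any of its 3 windows. Neither had TIMELESS and ATM in the second band or CHEK2 and ATRIP in the third. The printed genes were picked by their motifs, and a link between motifs and size of fall was not tested.

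**Figure D2:**
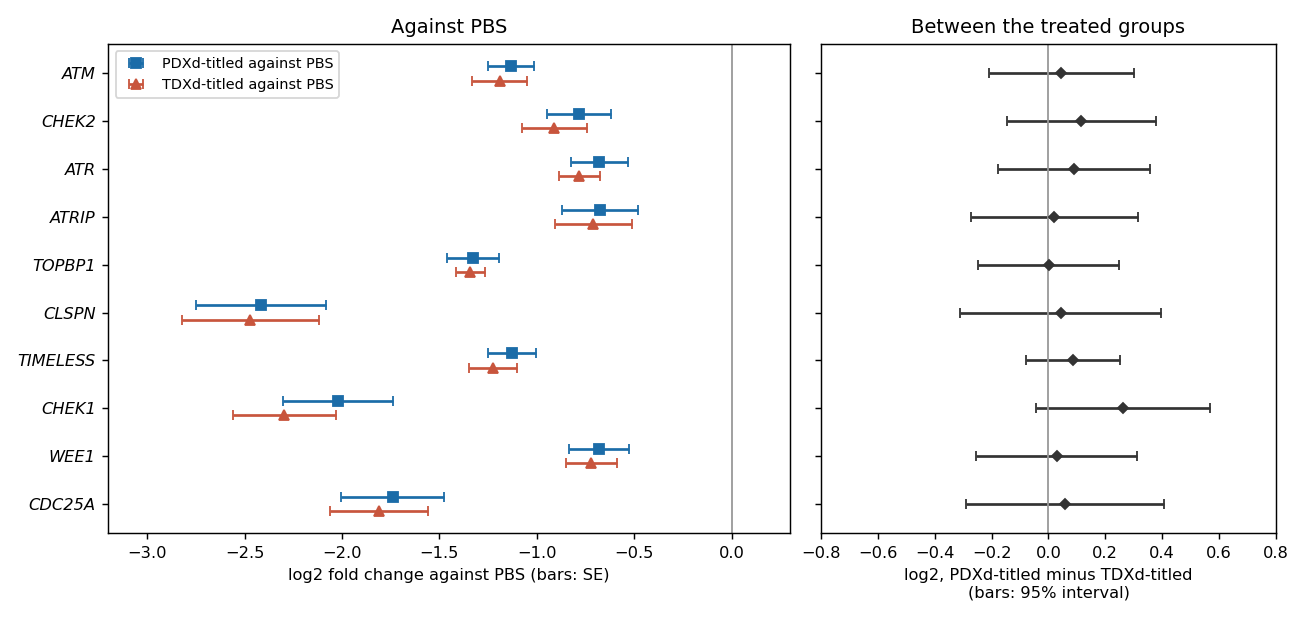
Left, log2 fold change against PBS of the 10 checkpoint genes in PDXd-titled (squares) and TDXd-titled (triangles) xenografts, with SE bars; right, log2 difference between the treated groups, PDXd-titled minus TDXd-titled, with 95% intervals. Every value on the left is below 0, from -0.68 to -2.47, and every interval on the right includes 0.

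In the comparison of the treated groups with each other, edgeR called 0 of the 10, beside 0.0273% of all genes tested (4 of 14653). At an unadjusted p below 0.05, 0 of the 10 passed, and DESeq2 also called 0. CHEK1 came nearest, at 18.5 ± 3.54 CPM (SD, n = 3) in PDXd-titled and 15.4 ± 1.41 CPM in TDXd-titled xenografts, a log2 difference of 0.26 with a 95% interval of -0.04 to 0.57 (edgeR unadjusted p = 0.0852, adjusted p = 1.00). The interval was -0.31 to 0.40 for CLSPN, -0.29 to 0.41 for CDC25A, -0.25 to 0.25 for TOPBP1 and -0.08 to 0.25 for TIMELESS. For ATM it was -0.21 to 0.30, for ATR -0.18 to 0.36, for ATRIP -0.27 to 0.31, for CHEK2 -0.15 to 0.38 and for WEE1 -0.25 to 0.31. These intervals leave room for differences of up to 0.57 on the log2 scale and do not show that the groups were equal.

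Levels of different genes were set against each other as CPM per kilobase of the canonical transcript in GENCODE v44. In PBS, CHEK1 was first at 18.4 ± 7.23 (SD, n = 3), followed by TIMELESS at 17.2 ± 2.63 and TOPBP1 at 14.9 ± 0.477. Next came CHEK2 at 9.17 ± 1.73, WEE1 at 8.84 ± 1.00, CDC25A at 8.20 ± 2.78, ATR at 6.27 ± 0.509, ATM at 5.50 ± 0.632, CLSPN at 4.17 ± 2.097 and ATRIP at 3.35 ± 0.814 CPM per kilobase. Among neighbours in this order, only TOPBP1 and CHEK2 had ranges that did not overlap.

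In treated xenografts the order was different. TIMELESS was first at 7.56 ± 0.392 CPM per kilobase (SD, n = 6), then TOPBP1 at 5.88 ± 0.624, WEE1 at 5.41 ± 0.669 and CHEK2 at 5.07 ± 0.412. CHEK1, first in PBS, was the fifth at 4.11 ± 0.713, followed by ATR at 3.76 ± 0.464, ATM at 2.45 ± 0.273, CDC25A at 2.38 ± 0.337, ATRIP at 2.06 ± 0.204 and CLSPN at 0.761 ± 0.0924. Here the ranges of neighbours were apart between ATR and ATM and between ATRIP and CLSPN, and overlapped elsewhere.

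Ratios of 2 genes within 1 library do not depend on the scaling between libraries. The log2 ratio of CHEK1 to CHEK2, the effectors of ATR and ATM, was 1.89 to 2.43 in PBS and 0.57 to 1.096 in treated libraries, with no overlap. CLSPN to TIMELESS went from between -1.75 and -0.90 to between -2.77 and -2.47, and CDC25A to WEE1, the phosphatase against the kinase on the same substrates, from between -0.37 and 0.27 to between -1.15 and -0.96. The groups stayed apart in both. ATR to ATM was -0.80 to -0.31 in PBS and -0.29 to 0.11 in treated libraries, so the groups were apart by a narrow gap. The difference of means in this ratio was 0.43 with PBS replicate 1 and 0.26 without it. ATR to ATRIP, the subunits of 1 complex, overlapped, at 1.24 to 2.08 in PBS and 1.34 to 2.09 in treated libraries.

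The 10 genes were then set beside 26 genes of DNA replication outside the checkpoint, among them MCM2 to MCM7, PCNA, GINS subunits, ORC1, ORC6, RFC subunits and DNA polymerases. All 26 were called lower in all treated against PBS, beside 17.1% of all genes, and 24 without PBS replicate 1, beside 14.0%. Their median log2 fold change was -1.39 in all treated against PBS, beside -0.01 over all genes. The largest falls were in ORC6 (-2.27 ± 0.24), ORC1 (-2.22 ± 0.24), both origin recognition subunits, and GINS2 (-2.14 ± 0.17), a helicase subunit. The mean log2 CPM of the 26 was 6.41, 5.88 and 5.69 in PBS replicates 1 to 3 and 4.52 to 4.76 in treated libraries, so PBS replicate 1 was the highest here as well.

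On the scale of log2 CPM minus this mean in the same library, most genes were higher in treated xenografts, because the mean itself was lower. Over all genes tested, the median difference between treated and PBS libraries was 1.38 on this relative scale, every treated library was above every PBS library for 82.4% of genes, and every treated library was below every PBS library for 1.96%. All 10 checkpoint genes were below that median, which restates their falls against PBS, since the same mean was subtracted from every gene.

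CHEK1 went from between 0.01 and 0.38 above the replication mean in PBS to between 0.34 and 0.72 below it in treated libraries. CLSPN went from between -1.14 and -0.60 to between -2.14 and -1.73. Both thus fell further than the replication mean, by 0.73 and 0.96 on the log2 scale, with no overlap of groups. Without PBS replicate 1 the differences were 0.63 and 0.79, again with no overlap, as for 2.77% of all genes in that direction.

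The genes of the third band fell less than the replication mean but more than most genes. The difference on the relative scale was 0.70 for ATRIP, 0.67 for WEE1, 0.64 for ATR and 0.54 for CHEK2, against the median of 1.38 over all genes. The groups did not overlap for these 4, as for 82.4% of all genes. Without PBS replicate 1 the differences were 0.69, 0.55, 0.36 and 0.48, beside a median of 1.17. ATM (0.21), TIMELESS (0.21) and CDC25A (-0.36) overlapped between PBS and treated libraries, and TIMELESS (0.23) did not once PDXd-titled replicate 2 was left out. In that setting every treated library was above every PBS library for 84% of all genes. TOPBP1 was at 0.03 with overlap, and at -0.17 with no overlap once PBS replicate 1 was left out. Without PBS replicate 1, every treated library was below every PBS library for 2.77% of all genes.

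**Figure D3:**
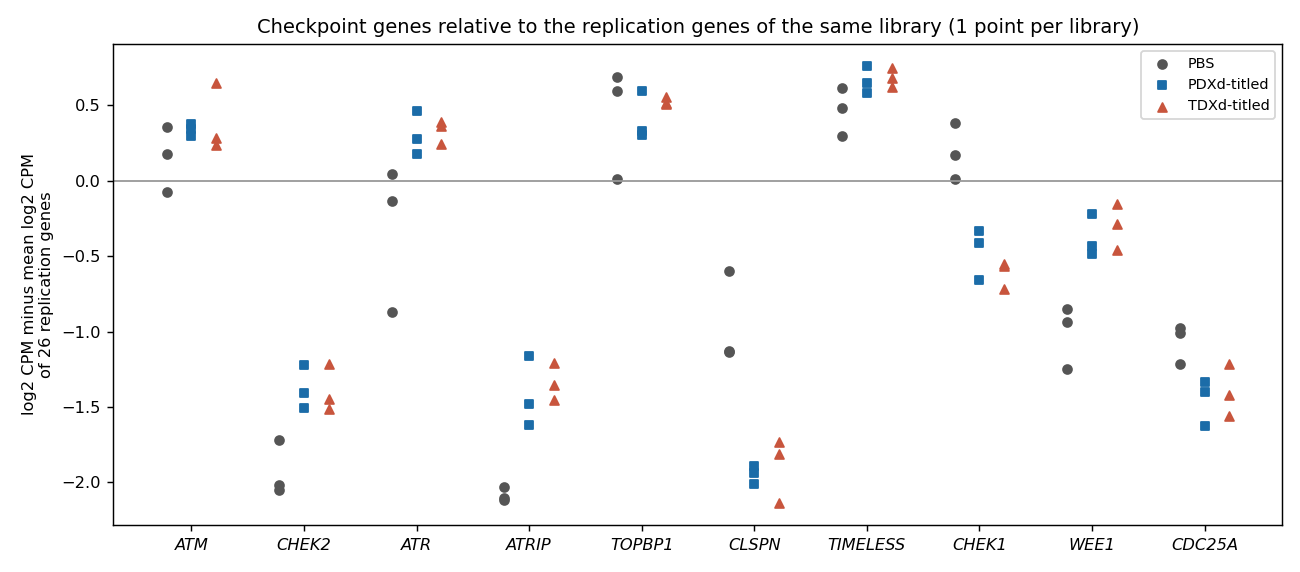
Vertical axis, log2 CPM of each checkpoint gene minus the mean log2 CPM of 26 replication genes in the same library; 1 point per library, circles for PBS, squares for PDXd-titled and triangles for TDXd-titled. CHEK1 and CLSPN lie lower in all treated libraries than in PBS, whereas CHEK2, ATR, ATRIP and WEE1 lie higher, as do 82.4% of all genes on this scale.

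Other genes of the pathway were taken from lists set out by role. Genes listed as partners of CLSPN and TIMELESS at the fork, among them genes of helicase start and origin firing, were lower as well. All 8 tested were called lower in all treated against PBS, beside 17.1% of all genes, and 7 without PBS replicate 1, beside 14.0%. Their median log2 fold change was -1.79 in all treated against PBS, beside -0.01 over all genes. Single genes of this list ranged from -0.60 in USP28 to -2.31 in MCM10. MCM10, which helps start the helicase, was at 18.3 ± 2.299 CPM in PBS and 3.68 ± 0.948 CPM in treated xenografts (log2 fold change -2.31 ± 0.20, edgeR adjusted p = 9.48e-06). CDC7, the kinase that fires origins and phosphorylates claspin, changed by -2.304 ± 0.20 and CDC45, a helicase cofactor, by -2.22 ± 0.16. In PDXd-titled against PBS, 6 of the 8 were called lower, beside 13.8% of all genes. The other 2, named here after their values were seen, were TIPIN, the partner of TIMELESS (-0.99 ± 0.35, adjusted p = 0.0626), and USP28 (-0.52 ± 0.10, under the fold minimum).

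Genes of mitotic entry, on which the checkpoint acts, had the lowest median of the lists. All 12 were called lower in PDXd-titled, TDXd-titled and all treated against PBS, beside 13.8%, 15.5% and 17.1% of all genes tested. Their median log2 fold change was -2.00 in all treated against PBS, beside -0.01 over all genes. PLK1, a kinase that ends the checkpoint, changed by -3.22 ± 0.42 (edgeR adjusted p = 0.000125), cyclin A2 (CCNA2) by -2.71 ± 0.18 and cyclin B1 (CCNB1) by -2.62 ± 0.23. CCNB1 was at 145 ± 57.7 CPM in PBS and 23.6 ± 5.72 CPM in treated xenografts. The pooled value of PLK1 covers unlike groups. It changed by -2.66 ± 0.33 in PDXd-titled and by -4.08 ± 0.33 in TDXd-titled against PBS. Its level was 8.65 to 15.9 CPM in PDXd-titled and 3.98 to 6.13 CPM in TDXd-titled libraries. Between the treated groups 0 of the 12 were called, beside 0.0273% of all genes tested.

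Of 9 genes of the clamp, its loader and the ATR activators, 3 were called lower and 0 higher in all treated against PBS, beside 17.1% of all genes called lower, with a median log2 fold change of -0.52. These were RHNO1, a clamp partner (-0.83 ± 0.09, edgeR adjusted p = 3.53e-05), RAD9A, a clamp subunit (-0.71 ± 0.13, adjusted p = 0.00111), and ETAA1, which activates ATR independently of TOPBP1 (-0.63 ± 0.14, adjusted p = 0.00261). The remaining 6, RAD17, RAD1, HUS1, RPA1, RPA2 and RPA3, had values from -0.52 to 0.04, and HUS1 and RPA3 missed the call by the fold minimum alone.

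Of 10 genes around ATM, 4 were called lower and 0 higher, beside the same 17.1% of all genes called lower, with a median log2 fold change of -0.26. H2AFX, the histone variant that ATM phosphorylates at breaks, changed by -0.98 ± 0.18 (edgeR adjusted p = 0.000904), MDC1, which binds the phosphorylated histone, by -0.97 ± 0.11 and MRE11A, a nuclease that senses breaks, by -0.70 ± 0.09. The other called gene, outside the naming rule and chosen after its value was seen, was TP53BP1 (-0.68 ± 0.06). RAD50 and NBN, the other subunits of the MRE11A complex, were at -0.16 and -0.25 and were not called. By sign, 8 of the 10 were lower and 2 higher. KAT5, named after its value was seen, was higher by 0.48 ± 0.09 (edgeR adjusted p = 0.00144) and missed the call by the fold minimum alone.

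Of 9 relatives of ATM and ATR and factors for their maturation, 5 were called lower and 0 higher, beside the same 17.1%, with a median of -0.61, and 3 were called without PBS replicate 1, beside 14.0%. PRKDC, the DNA-dependent protein kinase, changed by -1.49 ± 0.14 (edgeR adjusted p = 1.46e-05), SMG1, a kinase of nonsense-mediated decay, by -0.93 ± 0.07 and TELO2, which stabilizes these kinases, by -0.77 ± 0.16. The other called genes, named after their values were seen, were TRRAP (-0.74 ± 0.06) and RUVBL1 (-0.61 ± 0.12). MTOR, of the same kinase family, was at -0.17 ± 0.07 (adjusted p = 0.0550).

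**Figure D4:**
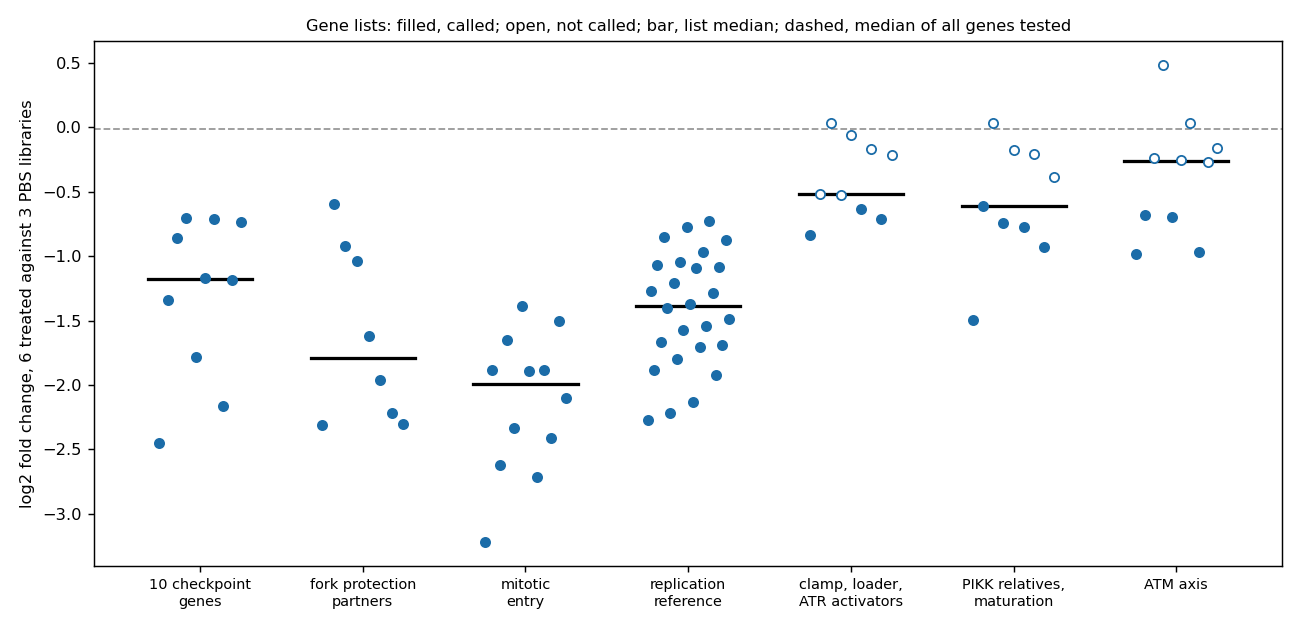
Vertical axis, log2 fold change of each gene in 6 treated against 3 PBS libraries, by gene list; filled points were called, open points were not, bars are list medians and the dashed line is the median of all genes tested (-0.01). All points are filled for the 10 checkpoint genes, the fork partners, mitotic entry and the replication genes, and open points occur in the lists for the clamp and ATR activators, the relatives of ATM and ATR, and the ATM axis.

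For each of the 10, the genes of most similar pattern were sought among 12462 others, as the smallest root mean square difference in centred log2 CPM over the 9 libraries. This is a description, and depth and group are shared by all genes compared. CHEK1 was closest to PBK (0.0738) and KIAA0101 (0.0938), CLSPN to SH3PXD2A (0.127) and ZWINT (0.131), and CDC25A to SPDL1 (0.0994) and MPP3 (0.101). TIMELESS had the closest match of all 10, TTF2 (0.0503), with NCAPD2 next (0.0633). TOPBP1 was closest to CEP192 (0.0902) and BARD1 (0.0972), and ATM to C1orf112 (0.0833) and AGO2 (0.0897). For ATR these were KCTD3 (0.0609) and WASF3 (0.0808), for ATRIP PGAM5 (0.0775) and MRPL16 (0.0787), for CHEK2 ADTRP (0.0661) and CCP110 (0.0691), and for WEE1 PTPN11 (0.0695) and AP4E1 (0.0708). Within the 10, ATM and TIMELESS were each other's nearest (0.0941), as were CHEK1 and CLSPN (0.187), ATR and WEE1 (0.142), and ATRIP and CHEK2 (0.157).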

How the data were processed

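RNA-Seq libraries (TruSeq mRNA) of 9 PC3 xenografts were analysed. Reads had been trimmed (Cutadapt), aligned (STAR) and assigned to genes (featureCounts) by the authors, who deposited raw counts in 2 tables of 16098 and 16114 genes (16008 in both, with identical PBS counts). Strand use and removal of mouse reads are not given in the sources used here. The labels name GRCh38, but 0 of the 10 checkpoint genes had the listed coordinates in GENCODE v44. The number of per-sample columns left unused was 0.

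Groups were taken from titles. Counts were tested with edgeR 4.0.16 in R 4.3.3 (TMM, filterByExpr, two-sided quasi-likelihood F test, Benjamini-Hochberg adjustment over all genes tested), each pair of groups on its own 6 libraries and all treated against PBS on 9. Calls required adjusted p ≤ 0.05 and a minimum fold change of 1.5 in either direction. SE is the log2 fold change divided by the square root of F. CPM used TMM-scaled library sizes, and log2 CPM a prior count of 2.

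Similar genes needed a mean of at least 100 counts. Up to 3 called genes with the largest change were named per list. Alternatives were DESeq2 1.42.0, RLE size factors, other count filters, no fold minimum, glmTreat, 1 fit of 9 libraries, a block on a digit of the animal code, and leaving out each library. The fit was tested on simulated data. The genes and lists were chosen with earlier results of these data known. Protein sequences were not used here, and 1 marker gene is not reported here.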

Additional observations from a re-analysis of the deposited data

How the results depend on the processing

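The direction of all 10 genes against PBS held under every alternative run, in each of the 3 comparisons. The number called depended on the strictness of the test and on single libraries. With glmTreat, in which a 1.5-fold change is the null, 6 were called in PDXd-titled and 6 in TDXd-titled against PBS (not ATR, ATRIP, CHEK2 and WEE1), and 7 in all treated against PBS (not ATR, ATRIP and WEE1), where 4.78%, 6.66% and 9.39% of all genes tested were called lower. Leaving out each library in turn, 6 to 10 were called in PDXd-titled against PBS, the fewest without PDXd-titled replicate 3 (6.94% of all genes tested called lower, against 13.8% with all libraries). Among genes related to ATM and ATR, 3 were called in all treated against PBS without PBS replicate 1, beside 14.0% of all genes called lower. Without PDXd-titled replicate 2, 5 were called, beside 17.1%, and both alternatives were chosen after seeing the data. The cause was not tested.

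Between the treated groups no call was made under any alternative, and signs turned for 7 genes. TOPBP1 was at -0.000413 on the log2 scale with at least 10 counts in every library and at -0.000366 with all 9 libraries in 1 fit. With the block on the animal code digit, whose meaning the labels do not state, ATRIP was not called in PDXd-titled (adjusted p = 0.0543) or TDXd-titled against PBS (adjusted p = 0.0759), within the ranges over alternatives given above, and no other call against PBS was lost. Between the treated groups that block gave -0.040 for ATM, -0.070 for WEE1, -0.073 for TOPBP1, -0.022 for CLSPN and -0.072 for CDC25A. Leaving out each library in turn gave -0.047 to 0.18 for ATM, -0.015 to 0.21 for ATR, -0.054 to 0.12 for ATRIP, -0.079 to 0.14 for WEE1, -0.12 to 0.11 for TOPBP1, -0.085 to 0.11 for CLSPN and -0.037 to 0.20 for CDC25A. The intervals between the treated groups given above rest on 3 libraries per group, and what set their width was not tested.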
